A study of Sus scrofa with 6 samples.

Results

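The PRE-1 windows are stretches of 201 bases of pig genome, listed with a count in at least 1 of 6 small RNA libraries of the duodenum, that match PRE-1, a short interspersed repeat (SINE) of the pig. A window was a member when its chromosome was not the mitochondrial genome and blastn found a match to the repeat of at least 80% identity over at least 40 bases that reached past base 95 of the window. Of 37376 nuclear windows, 4801 (12.8%) met this rule, among 37784 windows listed in all. The members had 4590 distinct sequences. Another 380 nuclear windows had a match that ended at or before base 95 and were left out.

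The libraries came from 5 Sutai piglets aged 28 days and compared genotypes at M307, a site in the fucosyltransferase gene FUT1. AA piglets (524 and 2129) were resistant to Escherichia coli F18, and GG piglets (512, 2134 and 2383) were sensitive to it. There were 2 pairs of full sibs across genotypes, 524 with 512 and 2129 with 2134, while the AA sib of 2383 was not analysed here. All animals were housed alike and no treatment was named. Piglet 512 was sequenced in 2 runs, which were summed and counted as 1 animal. Total RNA was taken from whole duodenal tissue, so fewer cells of a type and less RNA per cell cannot be told apart. The lists carry no gene names, and the tissue's marker genes were not analysed here.

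SINEs are mobile repeats that RNA polymerase III transcribes from an internal promoter and that spread by reverse transcription with enzymes borrowed from other elements. PRE-1 is the abundant SINE of pigs and derives from a transfer RNA. Its head keeps the A box and B box of a tRNA gene, which RNA polymerase III factors bind, and its end carries a run of A. Copies also lie in introns and untranslated parts of messenger RNAs, so their RNA can come from host genes as well as from the repeat's own promoter.

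The consensus is shown because every position below is counted on it. It was rebuilt from the windows themselves and had 251 bases, with the A box at bases 14 to 24 and the B box at bases 58 to 67, both in capitals.

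PRE-1 consensus: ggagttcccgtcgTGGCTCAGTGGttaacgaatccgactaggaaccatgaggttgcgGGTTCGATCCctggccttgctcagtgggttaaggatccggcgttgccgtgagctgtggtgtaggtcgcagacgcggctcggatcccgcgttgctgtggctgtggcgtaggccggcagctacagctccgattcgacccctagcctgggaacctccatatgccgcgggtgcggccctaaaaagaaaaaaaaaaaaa

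Some of the members with the highest counts were copies of a shorter element of 123 bases, whose last part resembles the end of PRE-1. Its sequence is given with the PRE-1-like end (element bases 60 to 123, 82.8% identity to consensus bases 188 to 245) in capitals. Bases 1 to 19 of its head aligned to consensus bases 1 to 20 with 18 of 20 bases alike, and bases 35 to 59 to consensus bases 144 to 162 with 19 of 25 alike. Neither the A box nor the B box letters were found in it.

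Short element: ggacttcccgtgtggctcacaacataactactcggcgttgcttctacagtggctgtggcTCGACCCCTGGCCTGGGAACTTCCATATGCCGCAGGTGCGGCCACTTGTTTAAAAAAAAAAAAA

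Coordinates are those of the files and count from 1 (all 407 mitochondrial windows matched the mitochondrial record at such coordinates). Their genome build is not given in the sources used here, so no gene, exon or intron was assigned. The bases as the files give them follow for 5 windows that carry the results, with the match to PRE-1 in capitals. Base 101, the centre, is the low end of the counted stretch on the chromosome. A copy is called plus when the listed bases read the repeat in its sense direction, and minus when they read its reverse complement. The first ones are leading windows inside the repeat, at its head and in the cluster near its end, the fourth is the short element window with the highest summed count and the last lies at the edge of a copy.

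chr1:55124199-55124399, plus copy, base 101 at repeat position 21: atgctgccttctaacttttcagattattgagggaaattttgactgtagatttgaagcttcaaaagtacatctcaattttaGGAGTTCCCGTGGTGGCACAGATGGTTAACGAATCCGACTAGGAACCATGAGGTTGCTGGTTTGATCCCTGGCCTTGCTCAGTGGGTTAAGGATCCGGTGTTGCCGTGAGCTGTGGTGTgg
chrX:31138497-31138697, minus copy, base 101 at repeat position 83: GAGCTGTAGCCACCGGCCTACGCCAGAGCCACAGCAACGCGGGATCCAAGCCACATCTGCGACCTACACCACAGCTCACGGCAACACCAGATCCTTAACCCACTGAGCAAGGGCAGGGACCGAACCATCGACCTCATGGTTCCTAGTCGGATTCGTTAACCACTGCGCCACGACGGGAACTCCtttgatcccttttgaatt
chr13:5922534-5922734, plus copy, base 101 at repeat position 171: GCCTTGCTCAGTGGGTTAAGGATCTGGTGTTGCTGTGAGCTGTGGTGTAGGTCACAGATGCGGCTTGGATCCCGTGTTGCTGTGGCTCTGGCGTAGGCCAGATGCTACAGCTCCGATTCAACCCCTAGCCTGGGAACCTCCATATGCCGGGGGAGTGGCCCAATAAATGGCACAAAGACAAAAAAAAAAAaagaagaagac
chr2:45189187-45189387, short element, minus copy: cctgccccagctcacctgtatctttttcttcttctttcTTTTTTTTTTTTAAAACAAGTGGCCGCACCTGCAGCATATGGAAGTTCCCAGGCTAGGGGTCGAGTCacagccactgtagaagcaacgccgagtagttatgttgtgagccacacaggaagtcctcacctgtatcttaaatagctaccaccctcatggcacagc
chrX:98879182-98879382, edge, minus copy, base 101 at repeat position 1: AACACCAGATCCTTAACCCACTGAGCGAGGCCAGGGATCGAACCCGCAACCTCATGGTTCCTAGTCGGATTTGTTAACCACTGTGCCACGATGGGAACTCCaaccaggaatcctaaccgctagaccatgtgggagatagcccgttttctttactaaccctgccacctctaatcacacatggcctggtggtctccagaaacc

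Matches to PRE-1 had a median identity of 85.3% (80 to 98.5%) and a median length of 152 bases (40 to 227). At the edge of the rule, 328 members had an identity under 81% and 137 had a match of 40 to 44 bases. Just outside it lay 920 windows with a match of at least 75% identity, the highest at 79.9%, and 25 windows with a match of 30 to 39 bases. A match of 40 bases can miss the counted stretch, so members were divided into 3 classes. In 3708 windows the match covered bases 101 to 120 and the short element was absent, and these are called inside the repeat. The short element was present in 346 windows. In the other 747, called edge windows, the match left bases 101 to 120 at least partly uncovered, as in the last window printed.

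Library totals ranged from 42354 counts in piglet 2383 to 192861 in piglet 2134, and the number of windows from 3998 to 19473. No window with fewer than 5 counts was listed. Member windows numbered 390 in piglet 524 and 954 in 2129, 712 and 604 in the runs of 512, 3338 in 2134 and 683 in 2383. Their median count was 6 in 5 libraries and 7 in run 2 of piglet 512, and from 23.3% to 36.3% of them stood at 5 counts. Of all members, 3858 (80.4%) were listed in 1 piglet only, and 2671 of these in piglet 2134. Among the other nuclear windows 80.04% were listed in 1 piglet. Only 64 members were listed in all 5 piglets. The listed window of a place could shift by a few bases between libraries: of the 3858, 1229 (31.9%) had a member of another piglet starting within 10 bases.

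PRE-1 windows took a larger part of the counts in GG piglets 2134 and 2383 than in GG piglet 512 or either AA piglet. The share of listed counts was 7.57% (95% Wilson interval 7.36 to 7.79) in AA piglet 524 and 7.56% (7.42 to 7.71) in AA piglet 2129. The 2 runs of GG piglet 512 gave 7.71% (7.54 to 7.88) and 7.44% (7.27 to 7.61). The share was 15.1% (14.99 to 15.31) for piglet 2134 and 14.7% (14.33 to 15.01) for piglet 2383, both GG. These intervals cover counting error only. Piglets 2134 and 2383 stood far above the rest, while piglet 512 lay at the level of the AA piglets. The deepest and the shallowest library were the high ones. The AA piglets had a mean of 7.57% ± 0.00835 (SD, n = 2) and the GG piglets one of 12.5% ± 4.24 (SD, n = 3). The difference of 4.90 percentage points did not pass a two-sided exact permutation test over the 10 splits of the piglets (p = 0.2, where 0.1 is the smallest possible). Without piglets 2134 and 2383 it was 0.00999 points. Among members of at least 90% identity it was 0.788 points, with 2.01% and 1.58% in AA piglets 524 and 2129 and 1.68%, 2.92% and 3.15% in GG piglets 512, 2134 and 2383. With each distinct 25-base stretch from base 101 counted once per library it was 2.92 points.

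The share of listed windows gave the same picture. It was 9.39% and 8.98% in AA piglets 524 and 2129, 8.76% in GG piglet 512, 17.1% in 2134 and 17.1% in 2383 (exact permutation p = 0.4). Mitochondrial windows moved the other way, with 8.25%, 8.16%, 9.21%, 1.66% and 1.97% of the counts in piglets 524, 2129, 512, 2134 and 2383. Over nuclear counts alone, the PRE-1 share was 8.25% and 8.23% in the AA piglets, 8.35% in 512, 15.4% in 2134 and 14.96% in 2383. Windows with the A and B box of a tRNA gene and no PRE-1 match numbered 115, and held from 0.290% to 0.746% of the counts.

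The higher level in piglets 2134 and 2383 lay in the windows inside the repeat. These held 2.39% of the counts in piglet 524, 3.43% in 2129 and 3.21% in 512, against 10.4% in 2134 and 8.25% in 2383. The short element did not follow that order: it held 3.31%, 2.22%, 2.96%, 2.53% and 4.42% in the same order of piglets. Edge windows held 1.87%, 1.91%, 1.40%, 2.24% and 1.99%. Inside the repeat, the groups still overlapped, since GG piglet 512 lay between the AA piglets.

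**Figure D1:**
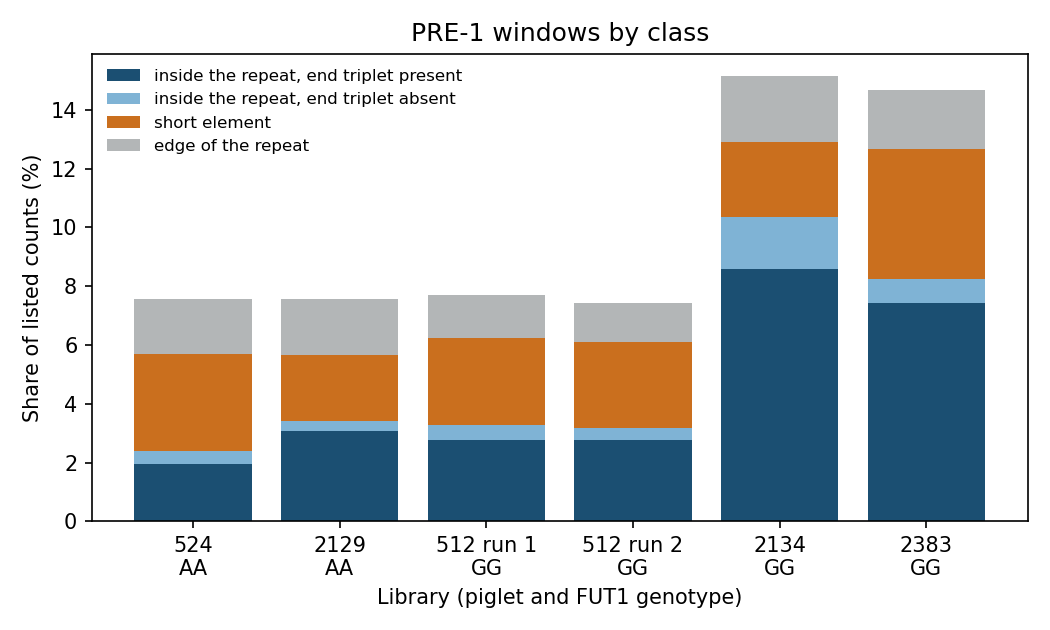
Share of all listed counts (%) held by PRE-1 windows in each of the 6 libraries, stacked by class; the windows inside the repeat are divided by a base triplet at the ends of the counted stretch that is described further on. The bars of piglets 2134 and 2383 reach 15.1% and 14.7% and the other 4 lie between 7.44% and 7.71%; the dark part inside the repeat makes up most of the gap.

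Copies of the repeat shared their counts. The 3708 windows inside the repeat held only 1864 distinct stretches over the 25 bases from base 101. In piglet 2134, 2741 windows had 1370 distinct stretches, and 419 of these occurred in more than 1 window. All windows of such a stretch had an equal count in 314 (74.9%) of the 419, and counts within 1 of each other in 377 (89.98%). In piglet 524 the counts were equal in 27 of 30 shared stretches, and in the other libraries in 82.8% to 87.3%. A count at one place therefore cannot be assigned to that copy, and the windows are not independent measurements.

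The stretches found at most places are shown to make this sharing visible, with a leading GAT, treated further on, in capitals. The first was listed at 35 places on 13 chromosomes, the other two at 34 and 30 places on 15 chromosomes.

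Repeat position 83, minus copies: cactgagcaagggcagggaccgaac
Repeat position 221, minus copies: GATggcatatggaggttcccaggct
Repeat position 193, plus copies: ccctagcctgggaacctccatatgc

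The stretch at position 83 was listed in every library. Its highest count was 10 in piglet 524, 13 in 2129, 13 and 16 in the runs of 512, 37 in 2134 and 18 in 2383. Only 2 or 3 places reached the lists outside piglet 2134, where all 35 did, with a median of 5 counts. As exact stretches, those at positions 221 and 193 appeared in piglet 2134 alone, each with a median of 7 counts at all of its places. They are most of the same sequence seen from its opposite strands. Piglet 2383 listed most of that sequence too, from neighbouring starts. A minus stretch at position 220 was listed at 20 places in both piglets, with a median of 8 counts in 2134 and 6 in 2383. A plus stretch at position 192 was listed at 18 places in 2383, with a median of 6 counts, and not in 2134.

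The 2 runs of piglet 512 give the repeatability of such lists. They shared 162 windows inside the repeat, which were 35.5% of those in run 1 and 42.1% of those in run 2. Piglets 2134 and 2383 shared 263 windows, 9.60% of the larger list and 51.1% of the smaller. With starts allowed to differ by up to 10 bases, 272 windows had a counterpart, 59.6% of run 1 and 70.6% of run 2. For piglets 2134 and 2383 the number was 443, or 16.2% and 86.02% of their lists. Single windows were thus less repeatable within an animal than the share of all counts, which was 7.71% and 7.44% in the 2 runs.

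Both orientations of the repeat were listed in every library. Plus copies made up 2129 of the 4801 members (44.3%). They held 28.2% of the PRE-1 counts in piglet 524, 30.6% in 2129, 31.2% in 512, 40.6% in 2134 and 30.6% in 2383. Piglet 2134 was highest and the others lay between 28.2% and 31.2%. The AA mean was 29.4% ± 1.71 (SD, n = 2) and the GG mean 34.1% ± 5.60 (SD, n = 3), with an exact permutation p of 0.5. The files do not give the strand of the reads, so orientation here is that of the copy on the chromosome and not of the RNA.

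The counted ends were not spread evenly along the repeat. Base 101 aligned to the consensus in 4171 members, and its repeat position marks the low end of the counted stretch. In plus copies inside the repeat, 336 of 1643 windows began at repeat bases 161 to 170 and 234 at bases 141 to 150. The leading position was 167, with 172 windows and 53 distinct stretches. In minus copies, where the low end on the chromosome is the 3′ end in repeat direction, 516 of 2065 windows fell at bases 181 to 190 and 279 at bases 191 to 200. Position 190 led there with 173 windows and 77 distinct stretches. Both orientations thus met over the same part of the repeat, from about base 165 to base 190, between the tRNA-derived head and the A-rich end.

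A second cluster lay just past the first, toward the A-rich end. Plus copies had 171 windows (40 distinct stretches) at bases 191 to 200 and 81 (35) at bases 201 to 210. Minus copies had 85 windows (26 distinct stretches) at bases 211 to 220 and 78 (17) at bases 221 to 230. Piglet 2134 listed 84 of these 85 and 74 of these 78 minus windows, piglet 2383 listed 30 and 19, and piglet 524 listed 0 and 12. A further cluster lay over the tRNA-derived head. There, plus copies had 117 windows at bases 21 to 30, just after the A box begins, and minus copies had 192 at bases 41 to 50. No plus copy inside the repeat began after base 230, in the A-rich end. A start close to the end of the consensus leaves too short a match to enter that class. Its absence there therefore says nothing about the A-rich end. Among edge windows, the plus copy at chr8:41475429-41475629 had base 101 at repeat position 244.

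**Figure D2:**
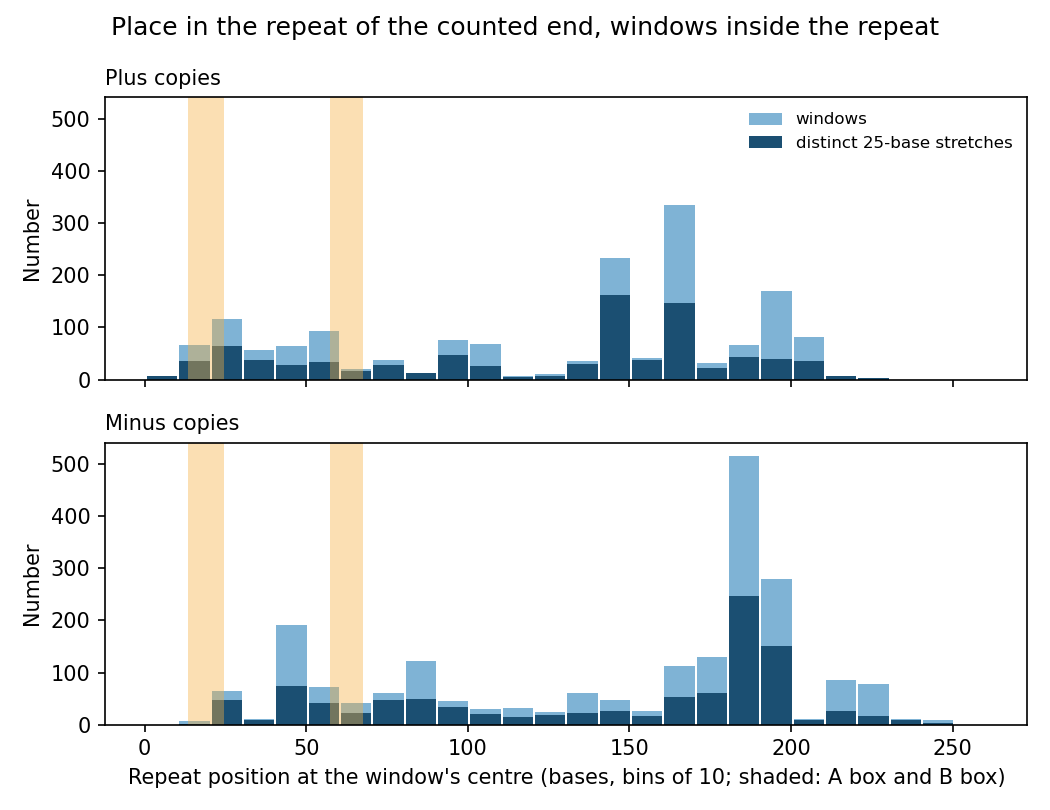
Number of windows inside the repeat (light bars) and of distinct 25-base stretches among them (dark bars) by the repeat position at base 101, in bins of 10 bases, for plus copies (top) and minus copies (bottom), over all libraries. The tallest bins are bases 161 to 170 in plus copies (336 windows) and bases 181 to 190 in minus copies (516 windows); the shaded bands are the A box and the B box.

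The main cluster appeared in every library. Plus windows beginning at bases 163 to 171 were 17.98% of the plus windows in piglet 524, 27.7% in 2129, 43.5% and 33.9% in the runs of 512, 24.7% in 2134 and 35.9% in 2383. Minus windows at bases 186 to 194 were 33.6%, 44.9%, 42.6%, 45.2%, 25.7% and 46.6%. Piglet 2134, with the longest list, had the lowest share of minus windows there and listed more of the rest of the repeat. In 2134 the middle part of the repeat, when it is divided into 3 equal parts over all members, held 26.999% of the counts, against 6.11% in 524, 12.7% in 2129, 13.7% in 512 and 16.4% in 2383. The depth of its list moves with this spread, and its part in it was not tested.

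The head of the repeat, up to 20 bases past the B box (base 87), varied in share between piglets, with overlapping genotypes over all members. It held 19.6% of the PRE-1 counts with an aligned base 101 in piglet 524, 26.4% in 2129, 13.9% in 512, 27.1% in 2134 and 14.6% in 2383. The sibs 2129 and 2134 were the high pair. The AA mean of 23.01% ± 4.82 (SD, n = 2) and the GG mean of 18.5% ± 7.43 (SD, n = 3) overlapped (exact permutation p = 0.6). Without members that hold the short element the genotypes did not overlap (exact permutation p = 0.2). The head then held 38.1% and 37.4% in AA piglets 524 and 2129, and 22.7%, 31.8% and 20.3% in GG piglets 512, 2134 and 2383. Matches of at least 100 bases gave the same order. At 90% identity the genotypes overlapped, with GG piglet 2134 highest (59.8%).

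The length of the counted stretches is not in the files, but pairs of copies in opposite orientation gave it for stretches of 18 or more bases. Shorter lengths were not searched, so 18 is not a measured lower limit. When the same RNA matches a plus copy and a minus copy exactly, the bases from base 101 in the first are the reverse complement of those from base 101 in the second over just the length of the stretch. In piglet 2134 there were 266 such mirror pairs over 18 to 30 bases among windows inside the repeat and 5 over 31 to 43 bases. In the other 5 libraries 22, 65, 48, 50 and 50 pairs spanned 18 to 30 bases, and 1 pair in all spanned 31 to 43. The fall was sharp: in piglet 2134, 50 pairs spanned 29 or 30 bases and 1 spanned 31 or 32. Other nuclear windows had a weaker edge, with 45 pairs of 29 or 30 bases and 30 of 31 or 32 in piglet 2134. The same pairs numbered 17 and 4 in piglet 524, and 20 and 18 in run 1 of 512. Over the wider spans, piglet 2134 had 227 pairs of 18 to 30 bases and 138 of 31 to 43 among these windows. Equal counts stood behind 70 and 16 of those. Inside the repeat, an equal count in both orientations stood behind 109 of the 266 pairs.

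**Figure D3:**
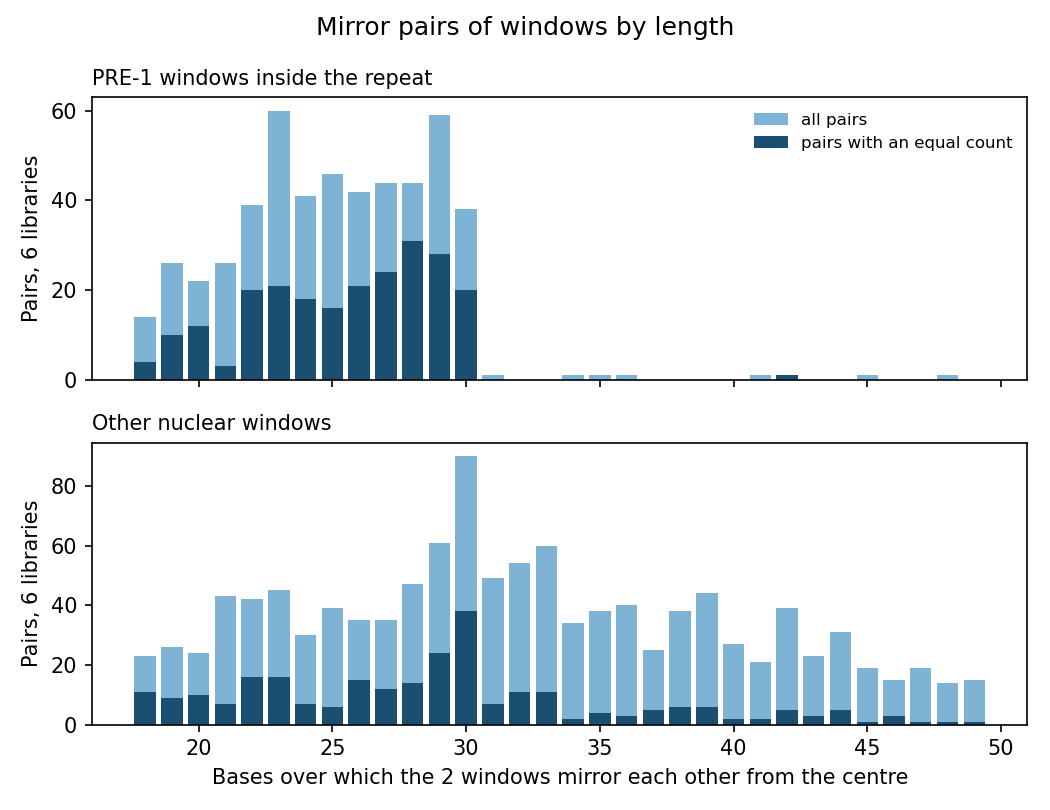
Mirror pairs of windows, summed over the 6 libraries, by the number of bases over which they mirror each other from base 101 (light bars, all pairs; dark bars, pairs with an equal count), for PRE-1 windows inside the repeat (top) and other nuclear windows (bottom). Pairs inside the repeat nearly stop at 31 bases, whereas the other windows fall less there and continue beyond. Lengths under 18 bases were not searched.

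Pairs with equal counts gave 181 distinct candidates for a counted sequence, of 18 to 30 bases. Of these, 81 had 27 to 30 bases, 60 had 23 to 26 and 40 had 18 to 22. A pair was taken when any window of one orientation had the same count as any window of the other. Counts are low, and up to 36.3% of the member windows of a library stood at 5 counts. Some equal counts can thus be coincidence, which was not tested, and many candidates had an equal count in 1 library only. The following 5 are shown in repeat-sense direction because each recurred in at least 3 libraries and all share their end bases. A GAT at the start or an ATC at the end is in capitals.

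Repeat positions 208 to 229, 22 bases: ttccatatgccgcaggtgcATC
Repeat positions 20 to 49, 30 bases: GATggttaacgaatccgactaggaaccatg
Repeat positions 196 to 223, 28 bases: tagcctgggaacttccatatgccgcATC
Repeat positions 190 to 214, 25 bases: gacccctggcctgggaacttccATC
Repeat positions 167 to 188, 22 bases: GATggtggctacagctctgatt

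The first had equal counts on both kinds of copy in 5 libraries: 6 in piglet 2129, 6 and 6 in the runs of 512, 8 in 2134 and 7 in 2383. The second had 17 counts in piglet 2129, 13 in run 1 of 512, 20 in 2134 and 11 in 2383. The last was found at 25 plus and 24 minus windows, with 5 or 6 counts in 3 libraries.

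Nearly all of these sequences carried GAT at one end. In repeat-sense direction 75 of the 181 began with GAT and 97 ended with ATC, its reverse complement, and 3 of them did both. Only 12 (6.63%) had neither. Read on the strand where the triplet comes first, the sequences therefore began with GAT.

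The same triplet marked the windows as a whole. GAT stood at base 101 in 928 of the 3708 windows inside the repeat (25.03%), and at base 81, ahead of the counted stretch, in 35 (0.944%). ATC ended somewhere in bases 118 to 130 in 2321 windows (62.6%), and in bases 43 to 55, a span of the same length outside the stretch, in 836 (22.5%). Either held in 3071 windows (82.8%), which carried 84.9% of the counts of the class. By library the windows with either were 86.3% in piglet 524, 89.95% in 2129, 85.3% and 88.6% in the runs of 512, 80.9% in 2134 and 89.7% in 2383. All libraries had it, and piglet 2134 had the lowest share.

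The triplet was mostly not that of the repeat. At the 928 windows with GAT at base 101, the aligned consensus bases were also GAT in 91 (9.81%) and were GCC in 232. At the 2321 windows with ATC at the other end, the consensus also had ATC in 342 (14.7%). In the chr1 window printed above, GAT begins at base 101, where the consensus continues the A box. The listed copies were thus ones that differ from the consensus at the end of the counted stretch. With the triplet at 1 end only, GAT lay on the repeat-sense strand in 1562 windows (54.0%) and on the antisense strand in 1331 (46.01%). By library the sense share was 52.0% in 524, 67.4% in 2129, 65.9% and 60.3% in the runs of 512, 49.6% in 2134 and 64.7% in 2383.

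**Figure D4:**
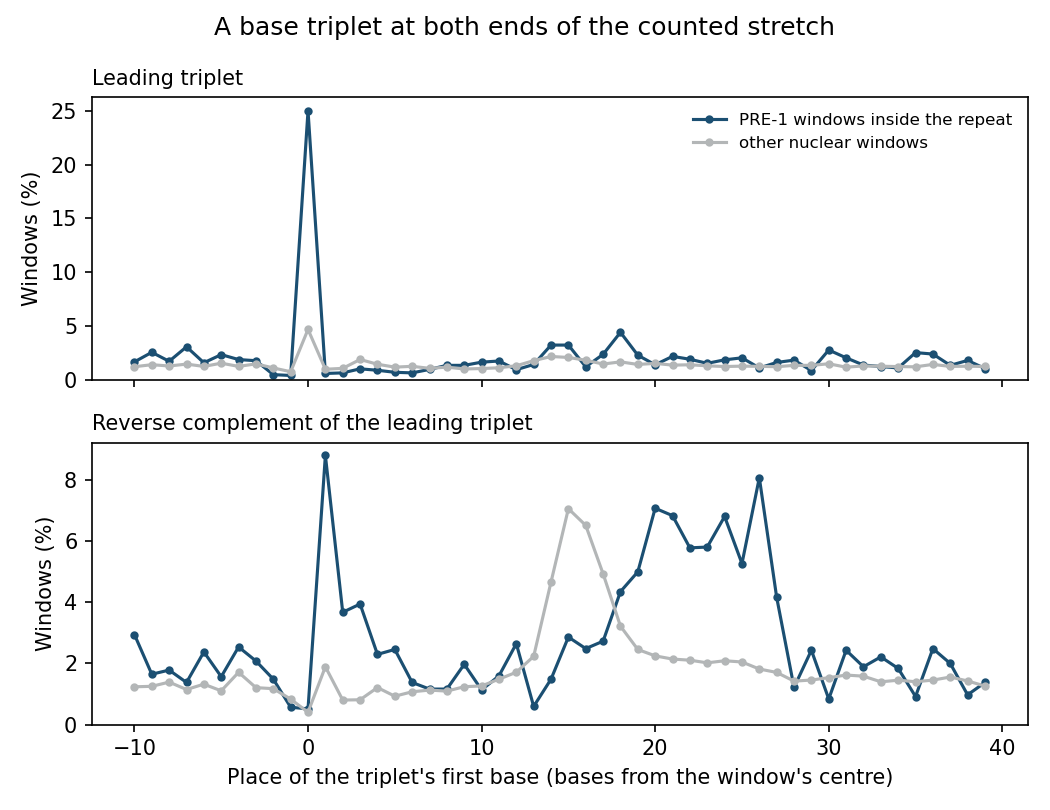
Share of windows (%) in which the triplet GAT (top) or its reverse complement ATC (bottom) begins at a given distance from base 101, for the 3708 PRE-1 windows inside the repeat (dark) and the 32575 other nuclear windows (grey). GAT peaks at distance 0, at 25.03% against 4.67%; ATC is raised at distances 18 to 27 inside the repeat and at 14 to 18 in the other windows, and inside the repeat also at distance 1 (8.79%), where it overlaps a GAT at the centre.

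Other nuclear windows showed the triplet less often. GAT stood at base 101 in 4.67% of them and at base 81 in 1.20%, and either end triplet was found in 39.7%. In the short element it was nearly missing: 8 of 346 windows (2.31%) had either. Edge windows lay between, with 68.1%. These shares describe the lists and have no test, since the windows share reads.

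The higher PRE-1 level of piglets 2134 and 2383 lay mainly in the windows with the triplet. Windows inside the repeat with it held 1.94% of the counts in piglet 524, 3.06% in 2129 and 2.77% in 512, against 8.60% in 2134 and 7.43% in 2383. Those without it held 0.447%, 0.368% and 0.439%, against 1.77% and 0.824%. Both kinds were highest in the same 2 piglets. With all members that have the triplet left out, the PRE-1 share was 5.01% and 3.77% in AA piglets 524 and 2129, 4.25% in GG 512, 5.19% in 2134 and 6.45% in 2383, and the GG minus AA difference fell to 0.905 points (exact permutation p = 0.4). The origin of the triplet was not tested.

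The short element behaved as its own small family. It was found in 781 nuclear windows at 273 separate places, of which 346 windows met the rule through their PRE-1-like end. All 781 held 5.68% of the counts in piglet 524, 3.89% in 2129, 5.19% in 512, 4.62% in 2134 and 8.09% in 2383. In plus copies base 101 fell most often at element positions 22, 1, 18 and 8. In minus copies it fell at 67, 64, 69 and 61, a few bases inside the PRE-1-like end. These 4 minus positions had 49, 38, 38 and 37 windows, and from them a counted stretch runs back toward the head. Other minus windows had base 101 deeper in the PRE-1-like end, with 27 at position 115, 24 at 114 and 23 at 82. How many of the element's counted stretches ran through its head, and how many through that end, was not counted.

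Among single windows, the short element at chr2:45189187-45189387, with 76 counts in piglet 524, 92 in 2129, 89 and 85 in the runs of 512, 155 in 2134 and 74 in 2383, had the highest count summed over libraries. Every library listed it. Counts of single windows are given here as listed and are not scaled to library totals. Those totals ran from 42354 in piglet 2383 to 192861 in piglet 2134, so equal counts are not equal shares. Inside the repeat the leading windows were far lower. The minus copy at chrX:31138497-31138697 had 10, 13, 13, 16, 37 and 18 counts in the same order of libraries, with the most listed counts in piglet 2134. The plus copy at chr1:55124199-55124399 had 7, 17, 13, 11, 20 and 11, as did copies on chromosomes 4, 8 and 13. The plus copy at chr13:5922534-5922734 was level in listed counts, with 9, 11, 12, 10, 12 and 9. The plus copy at chrX:12333189-12333389 had 23 counts in 2129, 62 in 2134 and 34 in 2383, and in the other libraries the same place was listed at windows shifted by 1 or 2 bases, with 7 counts in 524 and 24 and 26 in the runs of 512. Among edge windows, chrX:98879182-98879382 had 54, 65, 52, 50, 64 and 47 counts, similar in number before any scaling, and its match ended at base 101.

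PRE-1 windows were found on all 18 autosomes and on X. Their part of the nuclear windows ran from 9.33% on chromosome 7 to 17.3% on chromosome 16, with 14.9% on X. The share of plus copies ran from 39.3% on chromosome 13 to 51.9% on chromosome 17. On chromosome 16, PRE-1 held 24.96%, 18.4%, 25.5%, 27.3%, 27.9% and 37.1% of the nuclear counts in libraries 524, 2129, 512 run 1, 512 run 2, 2134 and 2383. On chromosome 6 it held 1.62%, 2.24%, 2.50%, 2.07%, 6.68% and 4.42%. On both chromosomes piglets 2134 and 2383 were the highest, although runs of 512 came close on chromosome 16.

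Short motifs were searched on both strands as a description of what the listed copies keep. The A box of a tRNA gene was found in 17.3% of members and 2.05% of the other nuclear windows, and the B box in 11.8% and 2.59%. A run of 10 A was found in 28.7% and 5.93%, and TTTT, the kind of run at which RNA polymerase III stops, in 85.2% and 80.2%. The A box, the B box and the A run lie in the consensus, so their excess follows from the rule. TTTT is also met by the A run read on the other strand, so its share does not count stop signals.

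For the comparison of genotypes, overlapping windows of all lists were merged into 24665 regions, of which 3686 held a PRE-1 window. Of these, 2522 were listed in 1 piglet, and 363 passed the filter, which asks for 10 or more listed counts in 2 or more piglets. The test was limma on log2(scaled count + 1), with 2 counts given to an unlisted value. It called 0 PRE-1 regions at an adjusted p under 0.05, and 0% of all 2777 regions tested. With unadjusted limma p-values under 0.05, 39 of 363 PRE-1 regions (10.7%) were higher in GG, against 6.63% of all regions. Another 6 (1.65%) were lower, against 2.05%. A region can pass the filter through GG piglets alone, as chr8:112305101-112305301 did, which neither AA piglet listed. These shares therefore describe the regions that passed and not all members. With scaling by total counts alone, 20 PRE-1 regions (5.51%) were higher and 9 (2.48%) lower, against 8.71% and 3.85% of all regions. Both lay under the shares of all regions, so the excess in GG of regions with an unadjusted limma p under 0.05 was not seen with that scaling. The median log2 difference with it was still 0.36 over PRE-1 regions, against 0.07 over all regions. Without AA piglet 524 there were 3 higher PRE-1 regions of 362 tested, against 2.34% of all regions, and without GG piglet 2134 there were 2 of 216, against 1.26%.

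The median log2 difference, GG minus AA, was 0.50 over the 363 PRE-1 regions and 0.20 over all 2777. By GG piglet the PRE-1 median, relative to the AA mean, was 0.33 in 512, 0.82 in 2134 and 0.44 in 2383, against 0.27, 0.37 and -0.09 over all regions. Piglet 2134 was highest. The filter lets a region pass through the group where it is high, so these are values of the regions that passed and not of all members. With the sib pair as a replicate block, limma called 2 of the 363 PRE-1 regions and 49 of the 2777 (1.76%). Piglet 2383 had no sib in the lists, so its counts did not enter that genotype difference, which rests on 2 sib pairs. Limma called 3 of 363 with scaling by total counts alone, against 1.69% of all regions, and 5 of 3686 with no filter, against 0.357%. In each of these settings the share called among PRE-1 regions was lower than among all regions.

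The 10 PRE-1 regions with the highest mean scaled count were 9 places of the short element and 1 edge region, and none differed by limma. The edge region, chr7:11213500-11214304, had 402, 539, 885, 545 and 211 listed counts in piglets 524, 2129, 512, 2134 and 2383, and at most 390 of them in any piglet fell in its PRE-1 windows. The short element place that led by region, chr9:12444357-12444594, had 109, 143, 290, 234 and 99. Its log2 difference was 0.30 ± 0.26 (SE; limma adjusted p = 0.621). Over the 9 places the log2 difference ran from 0.23 to 0.41. Since these places share reads, they are close to a single measurement made 9 times.

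The regions with the smallest limma p all had an adjusted p of 0.532. Higher in GG by value, chr7:105285927-105286926 was not listed in piglet 524 and had 17 counts in 2129, 64 in 512, 81 in 2134 and 46 in 2383. Its log2 difference was 2.87 ± 0.70 (SE) and the groups did not overlap in listed counts, but only 6 of the counts, in piglet 2134, lay in its PRE-1 window. The difference was 1.66 without piglet 524 and 4.02 without 2129, and 3.80 or 2.48 with 0 or 4 counts given to unlisted values. The short element at chr14:75041539-75041752 was not listed in 524 and had 10, 33, 46 and 13 counts in 2129, 512, 2134 and 2383, a log2 difference of 2.06 ± 0.61 (SE), which was 1.20 without piglet 524 and 2.85 without 2129. These 2 were the regions that the fit with the sib pair as a block called (limma adjusted p = 0.0262 and 0.0434). Those calls rest on the 2 sib pairs, without piglet 2383. The region at chrX:12333189-12333391, inside the repeat, had 7, 23, 50, 62 and 34 counts in piglets 524, 2129, 512, 2134 and 2383, a log2 difference of 1.53 ± 0.49 (SE). All of these counts lay in PRE-1 windows, and the difference was 0.86 without piglet 524 and 2.15 without piglet 2129. The short element at chr17:39581356-39581606 and the copy at chr8:112305101-112305301 completed the 5, with log2 differences of 1.24 and 2.13. The chr8 copy was not listed in either AA piglet and had 10, 24 and 12 counts in GG piglets 512, 2134 and 2383, so its difference rests on the value given to unlisted windows: it was 3.84 with 0 counts and 1.37 with 4.

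Lower in GG by value were 5 regions, 2 of them neighbours on chromosome 9. The region chr9:132096703-132097621 had 49, 89 and 58 counts in piglets 524, 2129 and 512 and was not listed in 2134 or 2383, a log2 difference of -3.37 ± 1.04 (SE). The region chr9:132097675-132098190 had 10, 44 and 13 in the same piglets and was likewise not listed in the other two, a log2 difference of -2.44 ± 0.72 (SE), or -1.61 without piglet 2129. Few of these counts were PRE-1: in the first only 7, in piglet 2129, and in the second 5 and 13, in 524 and 2129. The other 3, on chromosomes 1, 7 and 3, were edge regions with log2 differences of -1.69, -1.79 and -1.42. None of the 3 was listed in piglet 2383, and the differences were -1.22, -1.15 and -1.12 without it.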

How the data were processed

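Small RNA of the duodenum was sequenced in 6 libraries of 5 piglets. The deposited lists give each 201-base window with a read count (unit: other, since the records form no table), its coordinates and its bases, per the file headers. For the authors' aligner, genome build, filters and windowing: not given in the sources used here. Windows under 5 counts are not listed. Total RNA was extracted with Trizol, per the labels' protocols. Depth was 42354 to 192861 counts per library, and intervals cover counting error only.

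No consensus of PRE-1 was given, so one was rebuilt from the windows by extending the commonest seed by majority over blastn matches (BLAST 2.17.0, word size 11). Members, lists and classes were chosen with earlier results of these data known. Base 101 was placed on the consensus through the best match. Shares were compared by two-sided exact permutation tests over piglets. Windows overlapping by at least 1 base were merged and tested with limma 3.58.1 (R 4.3.3) with a mean-variance trend and Benjamini-Hochberg adjustment over all 2777 regions. Scaling was by TMM (30% of ratios and 5% of abundances trimmed), with 2 counts for unlisted values. Simulated data, with means from these lists and a fixed spread between animals not estimated from them, were used to check the fit. For GG against AA the fit called 50 of 50 regions raised 8-fold and 42 of 50 raised 4-fold. It called 12 of 15 lowered 8-fold, 6 of 13 lowered 4-fold and 4 of 1898 unchanged. Only regions that passed the filter are counted, and most of the lowered ones did not pass. These rates therefore need not hold for the lists themselves. Regions named were the 10 with the highest mean scaled count and the 5 with the smallest limma p in each direction. The sib pairs come from the labels. Deviations from the group means correlated at 0.05 for 524 with 512 and at 0.32 for 2129 with 2134 over 2777 regions, while 524 with 2383, which are not sibs, gave 0.27. The deviations of the 2 AA piglets are exact opposites, so 524 with 2134 gave -0.32. These values are therefore not separate checks of likeness between sibs. The count models planned, edgeR and DESeq2, were not run, because low counts are left out of the lists. Python 3.11.15, NumPy 2.4.6 and SciPy 1.17.1 were also used.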

Additional observations from a re-analysis of the deposited data

How the results depend on the processing

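The GG minus AA difference in the PRE-1 share of counts stayed positive under every alternative run, but its size did not hold: it was 0.788 points at 90% identity (0.390 for the share of windows) and 2.92 with distinct 25-base stretches. Leaving out each piglet in turn gave 3.56 to 7.34 percentage points for the share of counts, 3.74 to 7.93 for the share of windows, 1.50 to 6.49 for the plus share and -8.78 to -1.09 for the head share. The head share difference was -12.8 points without the short element and -13.1 points with matches of at least 100 bases. It changed sign with windows of at least 10 counts (2.96 points) and without members carrying GAT or ATC at the ends (1.23 points). The share of windows changed sign without piglets 2134 and 2383 together (-0.421 points). These last 2 settings, like the match over bases 101 to 120, distinct 25-base stretches and the short element left out, were chosen after seeing the data. No share passed 0.05 in any setting, which this number of piglets does not allow.

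PRE-1 regions called by limma were 0 when each piglet was left out, 3 with total counts alone (47 of all regions), 5 with no filter (88 of all) and 2 with the replicate block of full-sib pairs (49 of all). The cause was not tested. Of the named regions, the called ones were chr7:105285927-105286926 with total counts, no filter and the block, chr14:75041539-75041752 with no filter and the block, and both chromosome 9 regions with total counts and no filter. The block changed no other call among named regions. The median log2 difference of 0.50 was 0.22 with no filter, 0.80 over regions inside the repeat alone, and 0.30, 0.76, 0.45, 0.27 and 0.61 without piglets 524, 2129, 512, 2134 and 2383 in turn. Total counts alone moved the median of all regions from 0.20 to 0.07 and that of PRE-1 regions from 0.50 to 0.36. No single place can be resolved at this depth, since copies share counts and few windows exceed the 5-count minimum by much.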
